A study of Homo sapiens with 6 samples.

Results

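The genes examined are 54 genes of G2 phase and mitosis, taken as a list of known mitotic genes from gene expression arrays of L428 cells. All 54 were found among 18244 measured genes. Each gene was read from a probe set that the platform annotation assigns to it alone, and where there were several the brightest on average was taken. L428 is an established human Hodgkin lymphoma cell line. In 3 samples the cells had received an siRNA against BATF3, a transcription factor of the AP-1 family. In the other 3 they had received a commercial negative control siRNA. Both siRNAs were delivered by nucleofection, at 3 µg, and total RNA was taken after 48 hours of culture, and read on Affymetrix PrimeView arrays, 1 per sample. The series used 1 BATF3 siRNA and 1 cell line, and untreated cells were not analysed here. The labels do not say whether the replicates were separate cultures, and a p-value here speaks only of how far these 6 samples scatter, which could be technical scatter.

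Cells enter mitosis when the kinase CDK1, bound to A-type and B-type cyclins, becomes active, and they leave it when the anaphase-promoting complex marks those cyclins for destruction. In between, chromosomes condense, attach to the spindle through kinetochores, are held back by a checkpoint until every kinetochore is attached, and are then separated before the cell divides. Transcripts of most of these genes peak in G2 phase and mitosis in dividing cells, under the MuvB complex, which represses them with E2F and RB family proteins in resting cells and activates them with MYBL2 and FOXM1 in cycling cells. Their summed level is widely read as a sign of how many cells are dividing.

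Known features of promoters of this kind are the cell cycle genes homology region (CHR), which MuvB binds, and CCAAT boxes, which the factor NF-Y binds. RefSeq promoter windows of 300 bases (build GRCh38.p14, 250 before and 50 after the start) were read along the gene and matched 46 of the 54 genes. The table used here had no window for AURKA, TPX2, TTK, BIRC5, CDCA2, UBE2C, HMGB2 or ANP32E. The windows of 4 genes carry the letters that the results refer to: CCNB2, a B-type cyclin, for its spaced CCAAT boxes ahead of a CHR, PLK1, a mitotic kinase, for a single copy of each, and NUSAP1 and NCAPD2, which had the highest and the lowest expression change of the 54. Each is read from 5′ to 3′ along its gene, and capitals mark CHR letters (TTTGAA or TTCGAA) and CCAAT, on either strand.
CCNB2 (chr15:59104896-59105195, + strand): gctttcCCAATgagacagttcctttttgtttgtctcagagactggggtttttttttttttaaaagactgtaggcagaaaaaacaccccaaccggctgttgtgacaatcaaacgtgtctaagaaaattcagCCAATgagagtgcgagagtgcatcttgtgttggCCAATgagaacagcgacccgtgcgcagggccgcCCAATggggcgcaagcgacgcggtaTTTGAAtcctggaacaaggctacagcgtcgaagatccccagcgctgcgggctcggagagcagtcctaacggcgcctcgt
PLK1 (chr16:23678639-23678938, + strand): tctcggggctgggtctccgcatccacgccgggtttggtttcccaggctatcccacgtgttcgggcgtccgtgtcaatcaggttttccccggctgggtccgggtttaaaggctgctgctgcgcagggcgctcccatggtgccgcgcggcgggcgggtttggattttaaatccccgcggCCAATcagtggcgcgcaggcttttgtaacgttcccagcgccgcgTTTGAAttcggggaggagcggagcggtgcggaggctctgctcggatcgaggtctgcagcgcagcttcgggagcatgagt
NUSAP1 (chr15:41332631-41332930, + strand): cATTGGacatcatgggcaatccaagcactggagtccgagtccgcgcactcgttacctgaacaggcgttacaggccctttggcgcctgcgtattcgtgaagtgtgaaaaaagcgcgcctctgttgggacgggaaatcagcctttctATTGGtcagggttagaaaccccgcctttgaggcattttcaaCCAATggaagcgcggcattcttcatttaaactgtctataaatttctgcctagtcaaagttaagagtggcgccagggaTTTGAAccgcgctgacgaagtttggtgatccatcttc
NCAPD2 (chr12:6493852-6494151, + strand): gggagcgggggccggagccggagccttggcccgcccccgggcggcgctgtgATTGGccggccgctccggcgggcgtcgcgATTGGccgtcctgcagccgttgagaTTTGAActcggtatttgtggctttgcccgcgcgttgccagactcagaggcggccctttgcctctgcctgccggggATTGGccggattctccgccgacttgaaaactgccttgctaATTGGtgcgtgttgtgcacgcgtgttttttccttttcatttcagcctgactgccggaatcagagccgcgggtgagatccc

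A CHR match was present in 34 of 46 windows of the mitotic genes (73.9%), against 13.6% of the windows of all 14494 measured genes that had one in the table. CCAAT was present in 32 of 46 (69.6%), against 36.4%, and both motifs in 27 of 46 (58.7%), against 5.63%. Among genes of S phase, listed for comparison, 2 of 33 windows held a CHR (6.06%) and 24 held CCAAT (72.7%). In 2 members, CDCA8 and MKI67, a CHR match and a CCAAT match overlapped. The matches had preferred places. CHR matches were most frequent from 50 to 25 bases before the start, in 23.9% of the mitotic genes' windows against 1.20% of all windows, and CCAAT from 75 to 50 bases before it, in 47.8% against 9.76%. Where a gene had several windows, as 8 members did, the window listed first was used. Counting a match in any window gave 78.3% of members and 17.7% of all genes for the CHR. A match in these letters is a description of the window and does not show that a factor binds there.

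**Figure D1:**
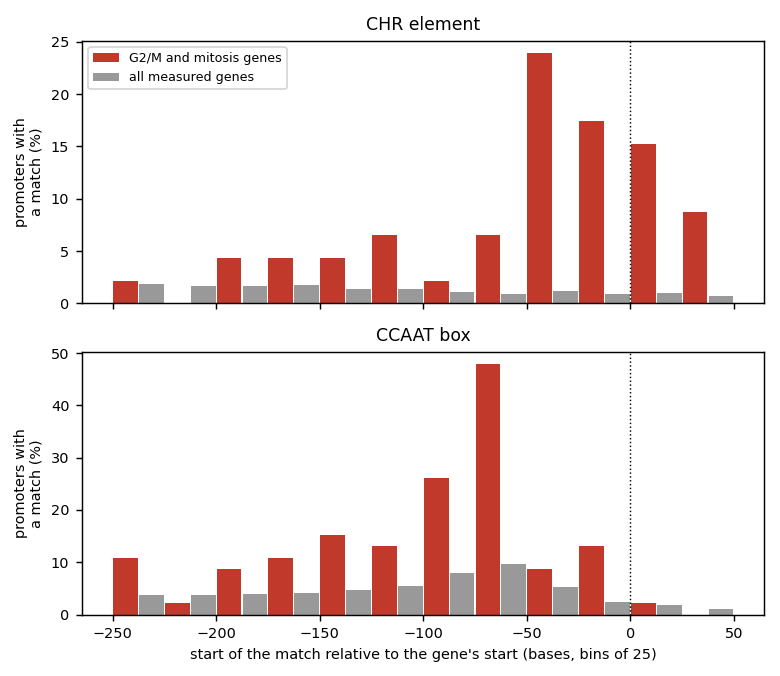
Share of promoter windows with a CHR match (upper panel) or a CCAAT match (lower panel) starting in each 25-base bin, by distance from the gene's start, for 46 mitotic genes (red) and 14494 measured genes (grey). The red bars peak at 23.9% for the CHR just before the start and at 47.8% for CCAAT further upstream.

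The arrays were checked before the mitotic genes were read. BATF3 itself read 10.87, 10.76 and 10.69 in the BATF3 siRNA arrays, against 11.89, 12.08 and 11.94 in the control siRNA arrays (log2 values). The change was -1.20 (SE 0.095), a ratio of 0.436 to control siRNA, with a limma adjusted p of 0.00673 over all genes. That p was 0.0688 without BATF3 siRNA replicate 3, 0.0648 without control siRNA replicate 2 and 0.250 with array background as a covariate. The Hodgkin markers TNFRSF8, CCL17, FSCN1, IRF4 and TRAF1 averaged 10.69 to 13.19 in the BATF3 siRNA arrays and 10.75 to 13.22 in the control siRNA arrays. All 5 markers of T and NK cells, all 5 of myeloid cells and all 5 of fibroblasts and epithelium lay under the highest background probe set on every array, as did 2 of 4 measured B cell markers. The mean of the background probe sets richest in G and C (20 to 25 bases) was 6.49, 5.92 and 5.98 in BATF3 siRNA replicates 1, 2 and 3, against 6.49, 6.48 and 6.46 in the control siRNA replicates. All 54 mitotic genes read above the highest background probe set (6.68 to 7.32) on every array, with means of 7.51 to 12.39. In total RNA from whole cultures, fewer cells in G2 phase or mitosis and less of a transcript per cell cannot be told apart.

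The mitotic genes as a list differed little between the siRNAs, and none of the 54 passed an adjusted p of 0.05 (limma, Benjamini-Hochberg over all genes), where 0.0164% of all genes did (0.00548% higher and 0.011% lower). The smallest adjusted p was 0.678. At an unadjusted limma p under 0.05 there were 2 members, TTK and NUSAP1, both higher after BATF3 siRNA, and 0 lower. That is 3.7% of members, beside 7.15% of all genes, 3.73% higher and 3.42% lower. The number higher was 4 without BATF3 siRNA replicate 1, where 4.81% of all genes were higher. It was 0 without BATF3 siRNA replicate 2 (3.05% of all genes), BATF3 siRNA replicate 3 (2.36%) or replicate 3 of the controls (2.59%), and 1 without control siRNA replicate 1 (3.51%) or 2 (4.41%). The number lower was 1 without BATF3 siRNA replicate 1, where 5.77% of all genes were lower. With each array centred on its median, the shares of all genes became 4.66% higher and 2.61% lower, and the smallest limma adjusted p of a member was 0.628. With array weights the shares were 8.95% higher and 9.21% lower, and that adjusted p was 0.192. In the main fit 29 of the 54 changes were positive (53.7%, beside 49% of all genes). The median change was +0.024, beside -0.0027 over all genes, and the median size of a change, regardless of sign, was 0.062, beside 0.085 over all genes.

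How large a change could have been missed is given by the intervals. Changes ran from -0.13 for NCAPD2 to +0.30 for NUSAP1, with standard errors of 0.081 to 0.15. The 95% confidence intervals, each for its own gene and not adjusted for the number of genes, lay within -0.5 to 0.5 on the log2 scale for 53 of 54 members. The exception was NUSAP1, whose interval reached 0.59. For every member the interval lay within -1 to 1, so a doubling or a halving was outside it.

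**Figure D2:**
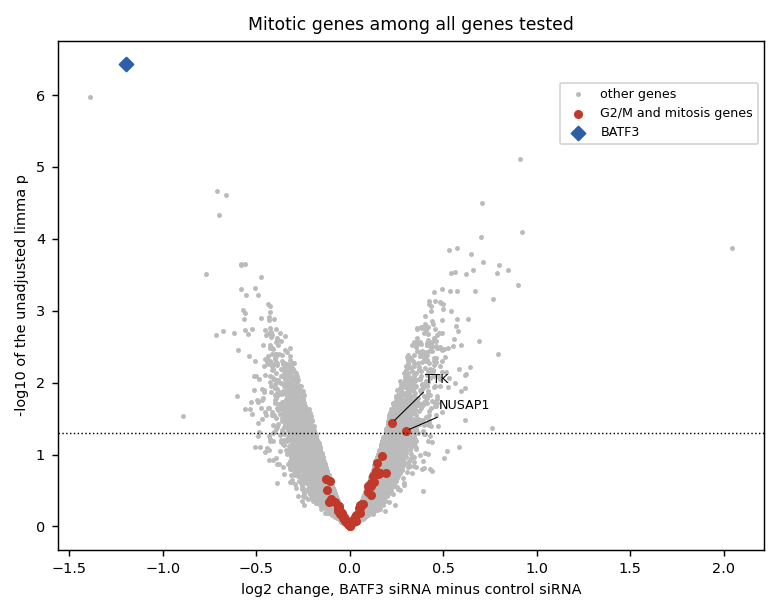
Log2 change (horizontal axis, BATF3 siRNA minus control siRNA) against -log10 of the unadjusted limma p (vertical axis) for 18244 genes, with the 54 mitotic genes in red, BATF3 as a blue diamond and a dotted line at an unadjusted p of 0.05. TTK and NUSAP1 are the 2 red points above the line, and every red point lies between -0.13 and +0.30.

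**Figure D3:**
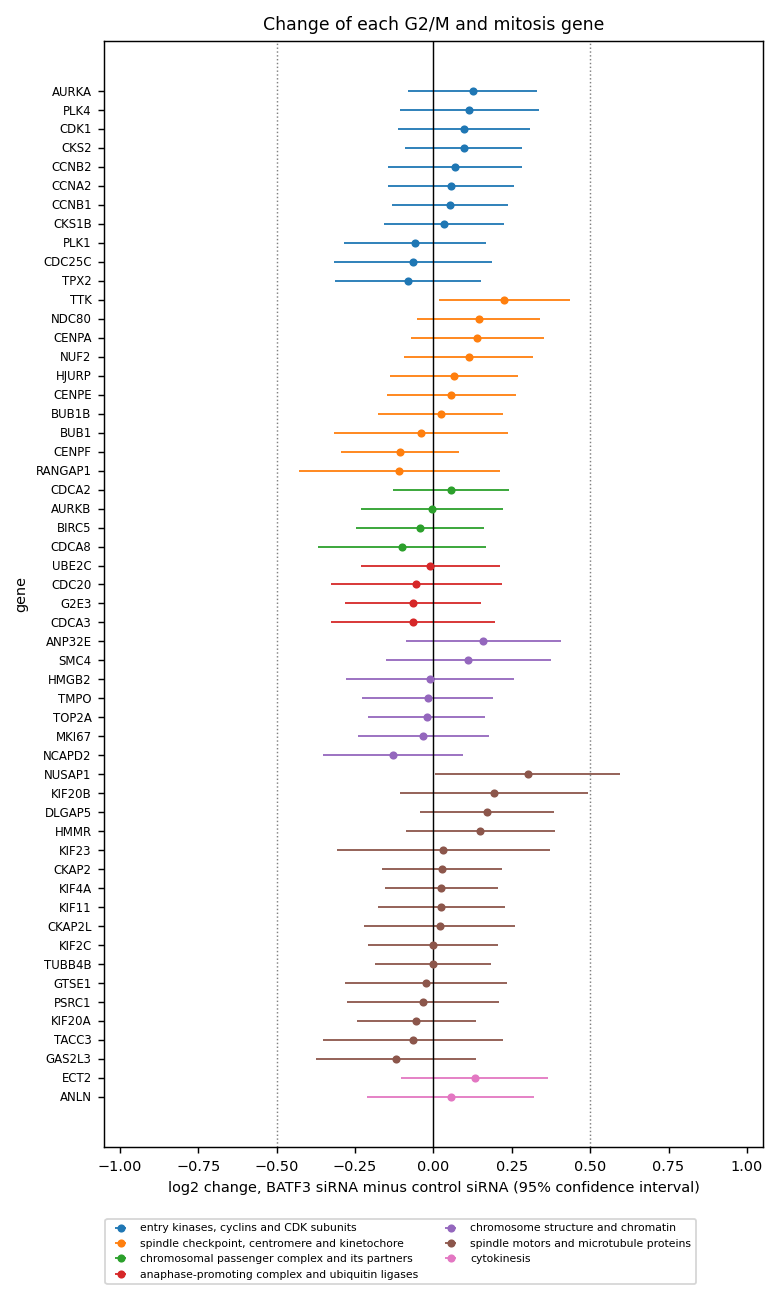
Log2 change of each of the 54 mitotic genes with its 95% confidence interval from limma (3 arrays per siRNA), coloured by role, with dotted lines at -0.5 and 0.5. The NUSAP1 interval alone crosses a dotted line, and the TTK and NUSAP1 intervals alone exclude 0.

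In 8 members the arrays of the 2 siRNAs did not overlap (14.8%, beside 12.1% of all genes). The BATF3 siRNA arrays were all higher in 7 of them, beside 6.36% of all genes, and these were TTK, NDC80, AURKA, CKS2, CDK1, CDCA2 and CCNB1. In 1, CENPF, they were all lower, beside 5.78% of all genes. After median centring 6 members did not overlap (11.1%, beside 12.7% of all genes), and after quantile normalization 6 (11.1%, beside 12.3%). The count rose when an array was left out, to 24 without BATF3 siRNA replicate 1 (44.4%, beside 29.5% of all genes), 15 without control siRNA replicate 2 (27.8%, beside 25%) and 13 without control siRNA replicate 1 (24.1%, beside 22.7%). With 3 arrays on each side the smallest two-sided p of an exact permutation test is 0.1, so separation of the groups is given as a description.

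The core of the entry switch, CDK1 with its cyclins, read nearly the same after both siRNAs. CDK1, the kinase that drives entry into mitosis, read 11.07, 11.07 and 11.08 in the BATF3 siRNA arrays, against 11.04, 10.83 and 11.06 in the control siRNA arrays. The BATF3 siRNA arrays were nearly level with each other, and control siRNA replicate 2 lay below the rest. The change was +0.096 (SE 0.093, 95% interval -0.11 to 0.31), and +0.023 without control siRNA replicate 2. All 3 of its probe sets were positive, from +0.096 to +0.15. In the CDK1 probe set at +0.099 control siRNA replicate 2 was instead the highest control array, and the groups overlapped. CCNB1, the main mitotic cyclin, read 11.14, 11.17 and 11.12 in the BATF3 siRNA arrays, against 11.04, 11.12 and 11.12 in the control siRNA arrays. Its groups did not overlap, but their nearest arrays were level to the second decimal, and the change of +0.051 was smaller than its SE of 0.082. CCNA2, the cyclin of S and G2 phase, read 11.02, 10.96 and 11.02 in the BATF3 siRNA arrays, against 10.90, 11.05 and 10.87 in the control siRNA arrays, a change of +0.056 with overlapping groups. CCNB2, the other B-type cyclin, was at +0.069, a value that, like each signed value given for a gene here, is the log2 change of BATF3 siRNA minus control siRNA.

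The phosphatase CDC25C, which removes inhibitory phosphates from CDK1, read 7.55, 7.44 and 7.44 in the BATF3 siRNA arrays, against 7.35, 7.74 and 7.53 in the control siRNA arrays. Control siRNA replicate 2 was the highest of the 6 arrays and control siRNA replicate 1 the lowest, so both ends of the range were controls. CKS1B and CKS2, small proteins that bind CDKs, were at +0.034 and +0.096. PLK1, a kinase that promotes CDK1 activation, spindle assembly and cytokinesis, read 10.25, 10.06 and 10.03 in the BATF3 siRNA arrays, against 10.07, 10.28 and 10.17 in the control siRNA arrays. Its change of -0.059 was within the overlap of the groups. PLK4, the kinase that starts centriole duplication, read 8.79, 8.84 and 9.02 in the BATF3 siRNA arrays, against 8.82, 8.66 and 8.82 in the control siRNA arrays, and BATF3 siRNA replicate 3 stood above the other 5 arrays.

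AURKA, the kinase of the spindle poles, read 12.13, 12.14 and 12.16 in the BATF3 siRNA arrays, against 12.12, 11.90 and 12.04 in the control siRNA arrays. The BATF3 siRNA arrays were all higher, with a mean change of +0.13 (SE 0.091, limma adjusted p = 0.843). Without control siRNA replicate 2 the change was +0.064. TPX2, the protein that activates AURKA on the spindle, was at -0.080. Over the 11 genes of entry kinases, cyclins and CDK subunits 8 changes were positive, with a median of +0.056, and 0 passed at an unadjusted p of 0.05.

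Kinetochore and checkpoint genes held TTK, the member with the smallest p. TTK, the MPS1 kinase that starts spindle checkpoint signalling, read 9.95, 10.07 and 10.16 in the BATF3 siRNA arrays, against 9.85, 9.77 and 9.89 in the control siRNA arrays. The groups did not overlap. The change was +0.23 (SE 0.092, 95% interval 0.018 to 0.43), with an unadjusted limma p of 0.0362 and an adjusted p of 0.678. Over the 15 alternative fits the adjusted p ran from 0.192 to 1, and the change was +0.13 with the array background as a covariate. BUB1, another checkpoint kinase, read 10.41, 10.67 and 10.55 in the BATF3 siRNA arrays, against 10.71, 10.34 and 10.70 in the control siRNA arrays. Its lowest array was control siRNA replicate 2 and its highest control siRNA replicate 1. BUB1B, which encodes the checkpoint protein BubR1, was at +0.023.

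NDC80 and NUF2 encode partners in the complex that grips spindle microtubules at the kinetochore. NDC80 read 10.21, 10.29 and 10.23 in the BATF3 siRNA arrays, against 10.01, 10.17 and 10.13 in the control siRNA arrays, a change of +0.14 (SE 0.087) without overlap of the groups. NUF2 read 10.04, 10.07 and 9.96 in the BATF3 siRNA arrays, against 9.82, 10.02 and 9.89 in the control siRNA arrays, where control siRNA replicate 2 lay among the BATF3 siRNA arrays. CENPA, the histone variant that marks centromeres, read 10.35, 10.47 and 10.45 in the BATF3 siRNA arrays, against 10.33, 10.16 and 10.37 in the control siRNA arrays. In this probe set BATF3 siRNA replicate 1 lay among the controls and the change was +0.14. Of the 4 CENPA probe sets 3 were positive, over a range of -0.054 to +0.19. In those at +0.19 every BATF3 siRNA array lay above every control array. HJURP, the chaperone that deposits CENPA, was at +0.065.

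CENPF, a large kinetochore protein of G2 phase and mitosis, went the other way and read 10.90, 10.83 and 10.91 in the BATF3 siRNA arrays, against 11.02, 11.00 and 10.94 in the control siRNA arrays. All 3 BATF3 siRNA arrays lay below all 3 control arrays, with a mean change of -0.11 (SE 0.084, limma adjusted p = 0.849). CENPE, a kinesin motor of kinetochores, was at +0.056, and RANGAP1, the activator of Ran GTPase, at -0.11 with control siRNA replicate 2 the highest array. Of these 10 genes 7 had a positive change, with a median of +0.061.

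The chromosomal passenger complex corrects faulty attachments and steers cytokinesis. AURKB, its kinase, read 11.44, 11.26 and 11.32 in the BATF3 siRNA arrays, against 11.27, 11.49 and 11.27 in the control siRNA arrays. The change of -0.0053 was a small fraction of its SE of 0.10 and its sign turned positive under 6 of the 15 alternatives, among them median centring (+0.019). BIRC5, which encodes survivin, read 11.42, 11.28 and 11.22 in the BATF3 siRNA arrays, against 11.31, 11.36 and 11.38 in the control siRNA arrays. Of its 12 probe sets 10 had negative changes, down to -0.17, and 3 lay under the highest background on every array. CDCA8, or borealin, was at -0.10, with BATF3 siRNA replicate 1 above the controls and replicates 2 and 3 below them. CDCA2, which recruits a phosphatase to chromatin, was at +0.056.

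For the anaphase-promoting complex the list held its activator, its ubiquitin-conjugating enzyme and 2 other ubiquitin pathway genes. In the probe sets used all 4 changes were negative and small (median -0.060). Of 6 probe sets of G2E3, though, 4 were positive, as was 1 of 3 of CDC20 (+0.057). All 4 probe sets of UBE2C and the 2 of CDCA3 were negative, 1 of those of CDCA3 under the highest background on every array. CDC20, the activator that the spindle checkpoint restrains, read 10.53, 10.43 and 10.29 in the BATF3 siRNA arrays, against 10.32, 10.71 and 10.38 in the control siRNA arrays. Control siRNA replicate 2 stood above the other 5 arrays, and without it the change was +0.066. UBE2C, the conjugating enzyme, read 11.33, 11.48 and 11.38 in the BATF3 siRNA arrays, against 11.33, 11.56 and 11.33 in the control siRNA arrays, with BATF3 siRNA replicate 2 and control siRNA replicate 2 highest. Its change of -0.011 turned positive under median centring (+0.013). CDCA3, known as a trigger of mitotic entry, was at -0.066, and the ubiquitin ligase G2E3 at -0.065.

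Genes of chromosome structure had no common direction, with 2 positive and 5 negative changes (median -0.019). TOP2A, the topoisomerase that untangles sister chromatids, read 12.38, 12.36 and 12.39 in the BATF3 siRNA arrays, against 12.43, 12.33 and 12.43 in the control siRNA arrays. These values lay close together on all 6 arrays, and the 95% interval of the change ran from -0.21 to 0.17. The change itself, -0.021, was +0.0028 after median centring. MKI67, which encodes the proliferation antigen Ki-67, read 11.12, 10.91 and 11.09 in the BATF3 siRNA arrays, against 11.04, 11.12 and 11.05 in the control siRNA arrays. BATF3 siRNA replicate 2 was the lowest array and replicate 1 the highest, so the groups overlapped fully.

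The condensin subunits SMC4 and NCAPD2, which belong to the same complex, had changes of opposite sign. SMC4 was at +0.11 and NCAPD2 read 9.95, 9.98 and 10.08 in the BATF3 siRNA arrays, against 9.99, 10.27 and 10.14 in the control siRNA arrays, a change of -0.13 (SE 0.099). That change was -0.062 without control siRNA replicate 2 and -0.20 without control siRNA replicate 1. ANP32E, a histone chaperone, read 11.48, 11.61 and 11.62 in the BATF3 siRNA arrays, against 11.55, 11.20 and 11.47 in the control siRNA arrays. Its control siRNA replicate 2 was the lowest array, and without that array the change of +0.16 became +0.057. HMGB2, a DNA-bending protein, was at -0.011, and TMPO, which encodes lamina-associated polypeptide 2, at -0.019.

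Among spindle motors and microtubule proteins 9 of 16 changes were positive (median +0.022). NUSAP1, which bundles spindle microtubules, read 11.13, 11.31 and 11.41 in the BATF3 siRNA arrays, against 11.16, 10.72 and 11.07 in the control siRNA arrays. BATF3 siRNA replicates 2 and 3 were the highest arrays, while replicate 1 lay below control siRNA replicate 1. The change was +0.30 (SE 0.13, 95% interval 0.0052 to 0.59), with an unadjusted limma p of 0.0468 and an adjusted p of 0.693. All 3 of its probe sets were positive, from +0.086 to +0.30. In the NUSAP1 probe set at +0.26 the groups did not overlap, with 9.79, 9.99 and 9.95 against 9.77, 9.58 and 9.62 in the controls. Without control siRNA replicate 2 the change was +0.17, and with the array background as a covariate it was +0.16.

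DLGAP5, which stabilises the microtubule bundles that hold kinetochores, read 10.85, 11.07 and 11.07 in the BATF3 siRNA arrays, against 10.84, 10.79 and 10.85 in the control siRNA arrays. Here too BATF3 siRNA replicates 2 and 3 were high and replicate 1 was level with the controls, and with the array background as a covariate the change of +0.17 was +0.029. HMMR, a spindle assembly protein, read 11.01, 11.20 and 11.34 in the BATF3 siRNA arrays, against 11.10, 10.95 and 11.04 in the control siRNA arrays, and its change of +0.15 was -0.0021 in that fit. KIF20B, a kinesin of cytokinesis, read 8.43, 8.60 and 8.71 in the BATF3 siRNA arrays, against 8.59, 8.12 and 8.45 in the control siRNA arrays. Its control siRNA replicate 2 was the lowest array, and without that array the change of +0.19 was +0.058. The 2 arrays in which these genes were highest, BATF3 siRNA replicates 2 and 3, were also the 2 with the lower background of probe sets rich in G and C.

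The other kinesins had changes under their standard errors. KIF11, the motor that pushes spindle poles apart, was at +0.025. The chromokinesin KIF4A was at +0.025, and of the 54 genes it had the narrowest range over the 6 arrays, from 10.54 to 10.59. The microtubule depolymerase KIF2C was at -0.00080, KIF20A, which carries the passenger complex to the midzone, at -0.055, and the midzone motor KIF23 at +0.032. KIF23 ranged from control siRNA replicate 1 at 9.68 to control siRNA replicate 2 at 10.31.

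Of the remaining microtubule proteins, TACC3, which binds and crosslinks spindle fibres, was at -0.066, and GTSE1, which binds microtubules in G2 phase, at -0.024. CKAP2 and CKAP2L, spindle-associated proteins, were at +0.028 and +0.019, and PSRC1 at -0.033. TUBB4B, a beta tubulin, was at -0.0016, and GAS2L3, a linker of actin and microtubules, at -0.12, with BATF3 siRNA replicate 2 the lowest array. For cytokinesis, ECT2, which activates the GTPase RHOA at the midzone, read 9.46, 9.75 and 9.67 in the BATF3 siRNA arrays, against 9.60, 9.43 and 9.46 in the control siRNA arrays. BATF3 siRNA replicates 2 and 3 were the highest arrays, and the change of +0.13 was -0.027 with the array background as a covariate. ANLN, a scaffold of the contractile ring, was at +0.054.

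The spread between arrays of the same siRNA was as large as most of these changes. The median SD of a member over 3 arrays was 0.092 for BATF3 siRNA and 0.080 for control siRNA. Control siRNA replicate 2 was the highest array for 15 members and the lowest for 18, so that it stood at an end of the range for 61.1% of the mitotic genes, beside 46.1% of all genes. Against the mean of the other 2 controls, KIF20B, HMGB2 and NUSAP1 were 0.40 lower there, BUB1 0.36 lower and SMC4 0.33 lower. On the same array KIF23 was 0.57 higher, RANGAP1 0.48 higher, TACC3 0.39 higher and CDCA3 and CDC20 both 0.36 higher. Genes of the same list thus went in opposite directions on 1 control array, by more than the largest change between the siRNAs. Of the 26 members given array by array, 4 had a change of the other sign and 13 more moved by over 1.5 times when control siRNA replicate 2 was left out, and 1 and 12 when control siRNA replicate 1 was. The difference between the 3′ and 5′ control probe sets of beta-actin was lowest on control siRNA replicate 2, at 0.37, against 0.54 and 0.55 on the other control arrays. The part of this difference in the values of the mitotic genes was not tested.

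**Figure D4:**
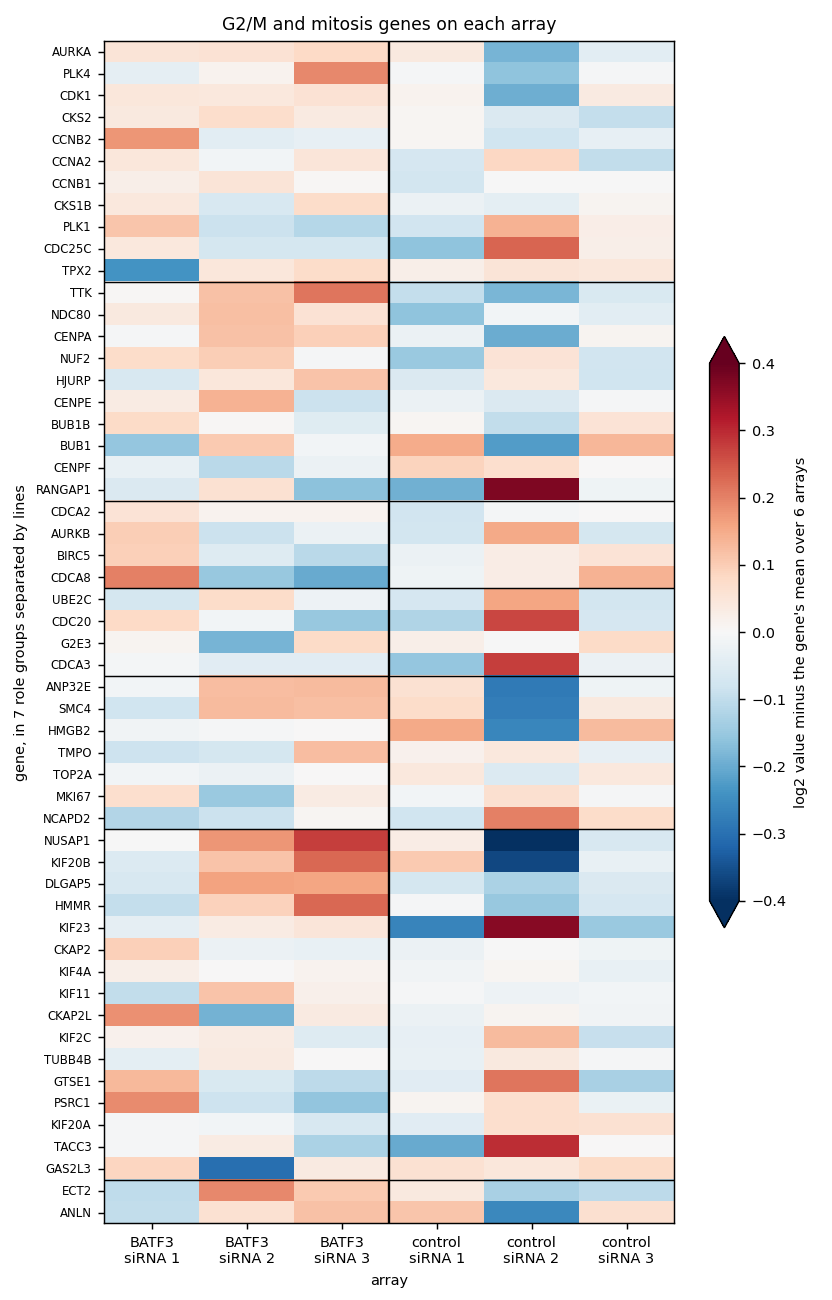
Log2 value of each mitotic gene on each array minus the gene's mean over the 6 arrays (red above, blue below, colour limits -0.4 and 0.4), with BATF3 siRNA arrays left of the control siRNA arrays and 7 role groups separated by lines. Strong colours stand in control siRNA replicate 2, red for KIF23 and RANGAP1 and blue for NUSAP1 and KIF20B, and in BATF3 siRNA replicate 2, blue for GAS2L3.

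The members had no common course across the 6 arrays. The correlation of each gene with the median of the other members, over 6 arrays that share 2 groups, had a median of 0.015. It was above 0.5 in 9 genes and below 0 in 25. NDC80 (0.95), NUF2 (0.84) and CCNB1 (0.80) followed the others most closely, while CENPF (-0.86), GAS2L3 (-0.76) and TOP2A (-0.74) ran against them. The correlations are given as a description, since the changes they rest on are of the size of the array spread.

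Probe sets of the same gene gave a measure of how far a value depends on the part of the transcript that is read. The 54 genes had 145 probe sets of their own, of which 76 were higher after BATF3 siRNA (52.4%, beside 49% of all single-gene probe sets). Of 37 members with more than 1 probe set, 12 were positive in all, 11 negative in all and 14 mixed. CKAP2 ranged from +0.028 for the probe set used to +0.39, and all 5 of its probe sets were positive. G2E3 ranged from -0.065 for the probe set used to +0.24. In its probe set at +0.24 every BATF3 siRNA array lay above every control array. TUBB4B had a probe set that read 4.60, 4.83 and 4.80 in the BATF3 siRNA arrays and 4.36, 4.39 and 4.40 in the control siRNA arrays, under the highest background on every array, so no change is given for it. For 14 members the probe set used carries a suffix by which the platform marks probes that may also match other transcripts, TTK, CENPA, CDK1, CDC20 and TUBB4B among them, and such values may include related genes.

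Changes can also be set out by promoter class. The 27 members with both motifs had a median change of +0.025 and 15 positive changes, and the 7 with neither had a median of -0.065 and 2 positive changes. The 7 with a CHR alone had a median of +0.11 and the 5 with CCAAT alone -0.0053. Each class held both signs, from -0.13 to +0.30 among members with both motifs, and no test was made of these classes.

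Further genes of the pathway, listed by role and outside the 54, were read in the same fit. Of 140 such genes in 6 lists 0 passed an adjusted p of 0.05 (limma), 6 were higher and 1 lower at an unadjusted p of 0.05, and 97 changes were positive (69.3%, median +0.038). Among all genes 0.0164% passed that adjusted p, and 49% of changes were positive. At the unadjusted p 3.73% of all genes were higher and 3.42% lower. Of 20 factors that control transcription of mitotic genes 19 had a positive change (median +0.081), 3 of them at an unadjusted limma p under 0.05, and 0 were called. The number positive was 20 after median centring and 18 after quantile normalization. E2F2, an activating E2F factor, read 10.39, 10.29 and 10.15 in the BATF3 siRNA arrays, against 9.81, 10.02 and 9.90 in the control siRNA arrays, a change of +0.36 (limma adjusted p = 0.493). TFDP2, a dimer partner of E2F factors, read 10.42, 10.36 and 10.40 in the BATF3 siRNA arrays, against 10.20, 10.01 and 10.15 in the control siRNA arrays, a change of +0.27 (0.569). In both genes every BATF3 siRNA array lay above every control array. So they did in E2F6, the remaining factor under that unadjusted p (+0.25, limma adjusted p = 0.569). E2F6 lay under the highest background on every control array. FOXM1 was at +0.10 and MYBL2 at +0.065, with limma adjusted p of 0.857 and 0.936. In FOXM1 and in LIN54 (+0.17, limma adjusted p = 0.805) every BATF3 siRNA array also lay above every control array. LIN54 too lay under the highest background on every control array. In the other genes of this list the groups overlapped, and 6.36% of all genes were higher without overlap. The median of the 20 genes on each array, relative to each gene's 6-array mean, was 0.032, 0.082 and 0.053 in the BATF3 siRNA arrays, against -0.079, -0.040 and -0.034 in the control siRNA arrays. For the 54 mitotic genes the same medians were 0.0086, 0.024 and 0.014 in the BATF3 siRNA arrays, against -0.023, 0.0035 and -0.012 in the control siRNA arrays. Taken relative to the median of all genes on each array they were -0.0049, 0.028 and 0.023 in the BATF3 siRNA arrays, against -0.0023, -0.021 and -0.011 in the control siRNA arrays, and the groups then overlapped.

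**Figure D5:**
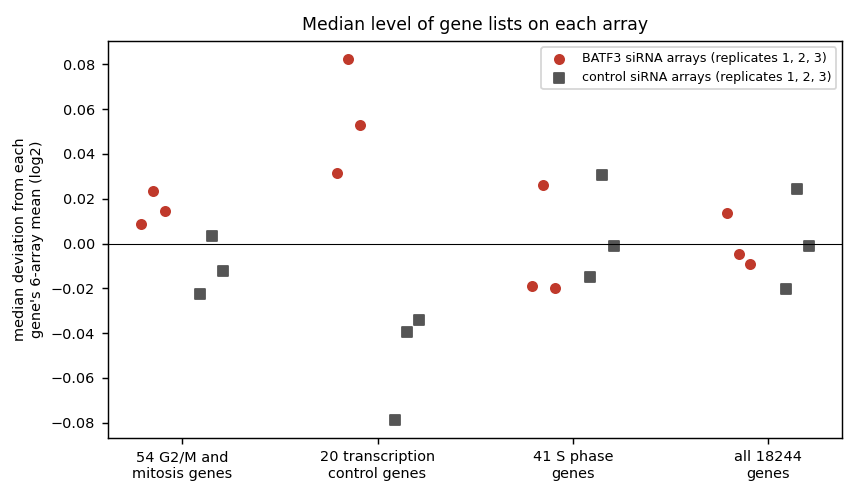
Median over each list of the log2 value minus the gene's mean over the 6 arrays, on each BATF3 siRNA array (red circles) and each control siRNA array (grey squares), with replicates 1, 2 and 3 from left to right. On this scale the BATF3 siRNA arrays lie above the control arrays for the mitotic genes, by at most hundredths of a log2 unit and not when the median of all genes is subtracted, and further above them for the transcription control genes, and they overlap with them for S phase genes and all genes.

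Among switches and brakes of entry, 14 of 18 changes were positive (77.8%, beside 49% of all genes, median +0.050). CDKN1A, which encodes the CDK inhibitor p21, read 8.30, 7.71 and 8.07 in the BATF3 siRNA arrays, against 7.22, 7.30 and 7.20 in the control siRNA arrays, a change of +0.79 (SE 0.14, limma adjusted p = 0.226). Its value in control siRNA replicate 1 did not exceed that array's highest background. GADD45A, a stress gene linked to G2 arrest, averaged 9.37 ± 0.087 in the BATF3 siRNA arrays and 9.01 ± 0.066 in the control siRNA arrays (SD, n = 3 each), a change of +0.36 (adjusted p = 0.446). Both were higher in every BATF3 siRNA array, and neither passed over all genes. Condensin and cohesin genes had 13 of 15 positive changes (median +0.036), with the smallest p-values for PDS5B at +0.18 and NCAPD3 at +0.19. Further kinetochore genes had 22 of 35 (median +0.039), with the smallest p-values for SKA1 at +0.17 and CENPQ at +0.34, and further spindle and cytokinesis genes 22 of 34 (median +0.039), with the smallest p-values for the kinesin KIF18B at -0.24 and the mitotic kinase PBK at +0.24. Subunits and regulators of the anaphase-promoting complex had 7 of 18 (median -0.011). Their median was +0.013 after median centring and -0.034 after quantile normalization. The smallest p-values there were for the inhibitor FBXO5 at +0.24 and the subunit ANAPC2, which lay under the highest background on every array. S phase genes had 20 of 41 (median -0.0034). Their median was +0.021 after median centring and -0.021 after quantile normalization. The median of all genes was +0.021 and -0.0045 in these settings. The smallest p-values of the S phase list were for UNG at -0.28 and for MCM5, which lay under the highest background on every array. In all of these lists 0 genes were called. At an unadjusted limma p under 0.05 the S phase list had 1 of 41 genes higher and 3 lower. The mitotic genes had 2 of 54 higher and 0 lower, and 3.73% of all genes were higher and 3.42% lower. The difference between the lists was not tested.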

How the data were processed

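Total RNA of L428 cells was hybridised as biotin-labelled cRNA to 6 arrays, 3 per siRNA, and the authors deposited 1 log2 value per probe set and array. That the base is 2 was taken from the size of the values. Per the submitters' processing notes the affy package was used, with no version, and background correction and normalization are not stated in what was used here. Normalization between arrays, if applied, would hide a shift of most transcripts in 1 direction. Pairs of arrays correlated at 0.995 to 0.998 across genes, which are not independent replicates. Of 49495 probe sets, 102 were controls and 45278 listed a single gene, which gave 18244 genes. Of the single-gene probe sets, 45208 had their Entrez identifier in the RefSeq table, and 0 symbols changed.

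limma 3.58.1 (R 4.3.3) gave each gene a two-sided moderated test with no covariate, through lmFit and eBayes, as BATF3 siRNA minus control siRNA, with Benjamini-Hochberg adjustment over all genes and a threshold of 0.05. The fit was tested on simulated data. The number of arrays limits the precision, with a median standard error of 0.107 over all genes and 4 residual degrees of freedom. Alternatives covered normalization, a filter on dim genes, probe set choice, array weights, the prior, the replicate number, array background and leaving out each array.

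The members, lists, tests and named genes were chosen with earlier results of these data known. Every member was assigned to a role. Values on each array are given for the 14 members with the smallest p and for CDK1, CCNB1, CCNA2, CDC25C, PLK1, AURKA, AURKB, BUB1, CDC20, CENPA, TOP2A, MKI67, BIRC5 and UBE2C, and 2 genes are named per further list. For the transcription control list E2F6, FOXM1, MYBL2 and LIN54 are named as well. Protein sequences were not used here.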

Additional observations from a re-analysis of the deposited data

How the results depend on the processing

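The count of mitotic genes past an adjusted p of 0.05 was 0 under all 15 alternatives, where 0 to 25 of all genes passed. Positive changes numbered 29 to 37, beside 45.5% to 56.7% of all genes. After median centring they numbered 36, where 56.7% of all genes were positive. Leaving out 1 array gave 0 to 4 members higher (2.36% to 4.81% of all genes) and 0 to 1 lower (2.28% to 5.77% of all genes) at an unadjusted p of 0.05, a median change of 0.019 to 0.044 (highest without control siRNA replicate 2), 10 to 24 members without overlap (18.1% to 29.5% of all genes), and a BATF3 change of -1.24 to -1.14, whose call was lost without BATF3 siRNA replicate 3 (limma adjusted p = 0.0688) or control siRNA replicate 2 (0.0648). With array background as a covariate BATF3 was at -1.11 (limma adjusted p = 0.250) and the median was 0.038. In that fit 0 members were higher (3.12% of all genes) and 1 lower (2.42%). The median was 0.048 after median centring, 0.042 for the most variable probe set and 0.0024 after quantile normalization. Over all genes it was 0.021, -0.0046 and -0.0045. The median of members less that of all genes was 0.027 both in the main fit and after median centring. The most variable probe set and quantile normalization each left 1 member higher (3.71% and 3.64% of all genes). With the mean of all probe sets 13 members had no overlap (24.1%, beside 13.3% of all genes), and with the most variable probe set 9 (16.7%, beside 12%). After median centring there were 6 (11.1%, beside 12.7%), and after quantile normalization 6 (11.1%, beside 12.3%). The overlap was not recomputed for array weights, the prior, the block or the covariate, which leave the values as they are. Causes were not tested. The replicate number as a block left 1 member higher (3.6% of all genes), NUSAP1 at 0.30 as before, and changed no adjusted call. Deviations of same-numbered arrays correlated at 0.029, 0.15 and -0.025, so the numbers were not taken as pairs, and only replicate 2 of BATF3 siRNA correlated best with its own number.

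Some changes turned sign, those of HMMR and ECT2 among them. With array background as a covariate AURKB became 0.095, BIRC5 0.062, CDC20 0.039, MKI67 0.057, PLK1 0.069, ECT2 -0.027 and HMMR -0.0021. After median centring AURKB became 0.019, TOP2A 0.0028 and UBE2C 0.013. Median centring adds the same amount to the change of every gene, and the median of all genes went from -0.0027 to 0.021. With array weights AURKB became 0.032 and UBE2C 0.060, and for the most variable probe set BIRC5 became 0.070, on a probe set under the highest background on every array, and TOP2A 0.022. Leaving out 1 array moved AURKB between -0.056 and 0.069, BIRC5 between -0.10 and 0.00086, BUB1 between -0.16 and 0.028, CDC20 between -0.13 and 0.066, CDC25C between -0.16 and 0.035, MKI67 between -0.074 and 0.034 and UBE2C between -0.051 and 0.065.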
